A study of Mus musculus with 61 samples.

Results

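Forebrain and hindbrain were compared at the end of mouse gestation, at E16.5, a late embryonic stage, and at P0, the day of birth. The RNA-seq libraries were chosen by the tissue and stage in their column headers: 2 of forebrain and 2 of hindbrain at each stage, 8 of the 61 libraries in the series, which also follows midbrain and liver from midgestation to birth. Every group is fetal or newborn Mus musculus tissue, and the labels name no treatment, allele, strain or sex. Whether the libraries of a group are different animals is not stated, and the p-values therefore describe library-to-library spread that could be technical. Values are in TPM, a unit of transcript abundance scaled by gene length and by the library's total, which keeps no read counts, so depth is unknown. At 1 TPM or more, 14854 to 15299 genes were detected per forebrain library and 15478 to 15561 per hindbrain library. The design answers which genes separate the front from the back of the brain as neurogenesis ends, and which of those differences change between the last days of gestation and birth. The forebrain holds the cerebral cortex, hippocampus, basal ganglia, thalamus and hypothalamus. The hindbrain holds the cerebellum, pons and medulla.

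The neural tube is divided along its length early, by transcription factors that each region keeps for much of development. The Emx and Dlx families work in the telencephalon, the En and Pax2/5/8 genes at the border of midbrain and hindbrain, and the Hox genes, in nested domains, in the hindbrain and spinal cord. The pons and medulla make most of their neurons earlier than the cortex, and glial cells and myelin also appear there first. The cerebellum is an exception within the hindbrain, because its granule cell precursors keep dividing after birth.

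Some libraries stood apart. Hindbrain E16.5 replicate 1 held 329 TPM of skeletal muscle and cartilage genes in sum, against 18.4 to 68.5 TPM in the other 7 libraries, and 28.5 TPM of the caudal gene Hoxb9 against 5.47 TPM in the other hindbrain library of that stage. Hindbrain replicate 1 of each stage also held low levels of forebrain genes that its partner library lacked or held less of, Dlx1 at 5.32 and 0.96 TPM against 0.16 and 0.12 TPM. Forebrain P0 replicate 1 held more of the hypothalamic peptide gene Pmch than its partner, 31.0 against 4.12 TPM. For hindbrain E16.5 replicate 3 and hindbrain P0 replicate 2, the sample record that names the column gives the other stage in its title. The header was followed. Across tested genes, hindbrain E16.5 replicate 3 differed from the other E16.5 hindbrain library with an SD of 0.258 on the log2 scale and from the undisputed P0 library with an SD of 0.321. Hindbrain P0 replicate 2 differed from the undisputed P0 library with an SD of 0.269 and from the undisputed E16.5 library with an SD of 0.427. The average over both stages uses the same 4 hindbrain libraries whichever label is right. Results on a single stage depend on it. Outside the 8 libraries, those of E15.5 went against their tissue labels: Hoxb3 stood at 0.15 and 0.24 TPM in the 2 labelled hindbrain and at 87.6 and 78.04 TPM in the 2 labelled midbrain. They enter no comparison here and only add to the spread shared by all groups, which is taken within each pair.

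Of the 14313 protein-coding genes tested (at 1 TPM or more in at least 2 of the 8 libraries), 885 differed between the regions on the average of both stages, 6.18% of those tested. A gene was called at a limma adjusted p below 0.05 and a difference of at least 1 on the log2(TPM + 1) scale. All differences below are forebrain minus hindbrain on that scale, which understates the fold change of genes at low levels. Forebrain was higher for 192 genes (1.34%) and lower for 693 (4.84%). The median of all tested genes was -0.06, and quantile normalization moved it to 0.06. Forebrain was the higher region in 21.7% of calls, in 34.7% under quantile normalization (277 higher and 521 lower) and in 25.1% under median-of-ratios scaling (195 and 582). The strongest differences were also more often toward hindbrain, with a smaller skew than among all calls: 22 genes were called higher in forebrain by at least 3, and 44 lower. By at least 4 the numbers were 10 and 20. Hox genes were among the lower ones in both counts. Without any threshold, the 4 forebrain libraries lay above the 4 hindbrain libraries for 1193 genes (8.34%) and below them for 2588 (18.1%). Some lists below also carry counts at an unadjusted p under 0.05. No share of all genes at that cut is given here, so such counts do not show that a list leans.

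**Figure D1:**
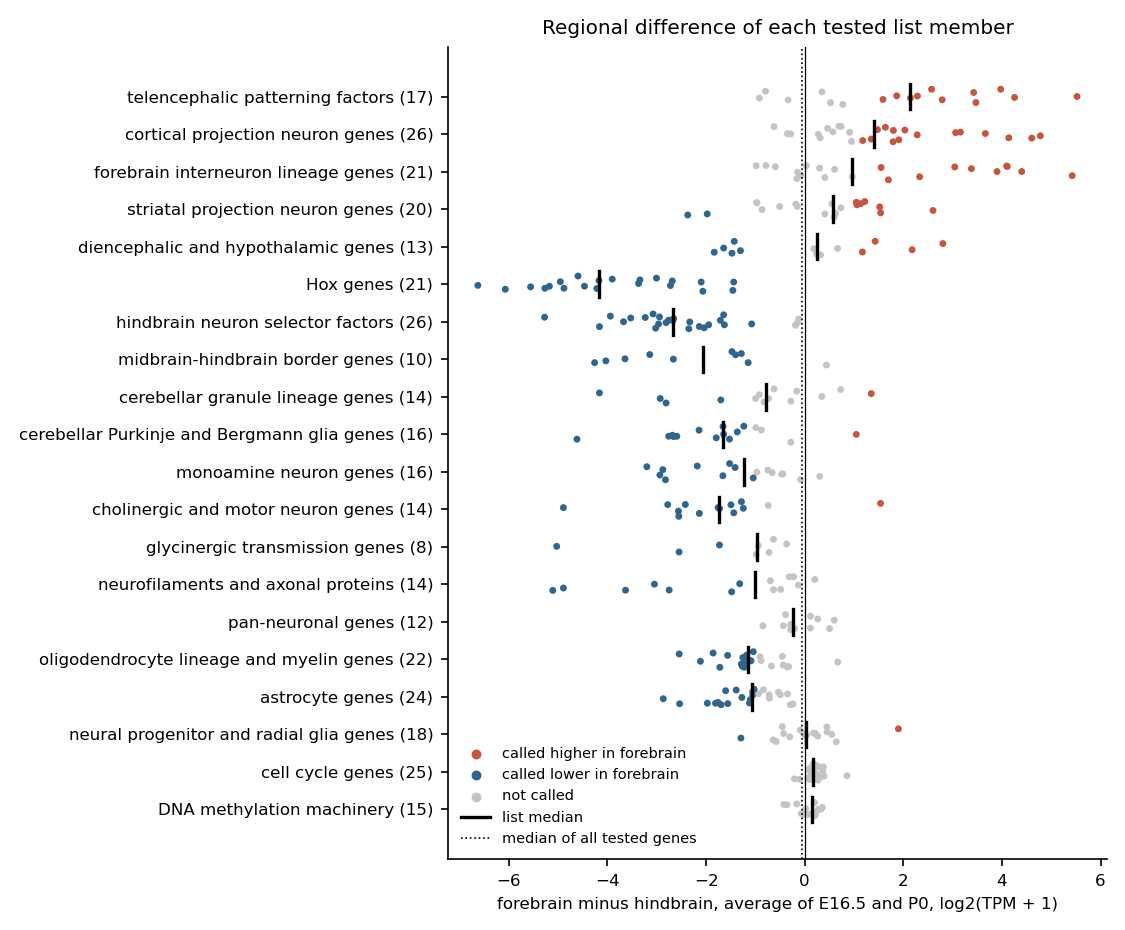
Difference between forebrain and hindbrain (average of E16.5 and P0, log2(TPM + 1)) for each tested member of 20 gene lists, with the number tested in brackets. Black bars are list medians and the dotted line is the median of all tested genes at -0.06. The 21 tested Hox genes, which passed the filter through hindbrain libraries alone, are all lower in forebrain.

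The groups below are ordered from forebrain to hindbrain identity, then neuronal function, glia and proliferation. On the average of both stages, each list count below stands against 1.34% of all genes higher in forebrain and 4.84% lower. Values of single libraries are given in the order E16.5 replicates 1 and 2, P0 replicates 1 and 2 for forebrain, and E16.5 replicates 1 and 3, P0 replicates 1 and 2 for hindbrain. Because these are pieces of whole tissue, a gene can be lower because fewer cells of a type are present or because each holds less of its RNA, and the 2 cannot be told apart here.

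Transcription factors that pattern the telencephalon still separated the regions at the end of gestation. Of 17 tested, 11 were higher in forebrain and 0 lower, against 1.34% and 4.84% of all genes, with a median of 2.15. Emx1, a homeobox factor of the developing cortex (ENSMUSG00000033726.8, mm10 chromosome 6, 85187438 to 85204462), stood at 30.8, 24.4, 15.03 and 18.6 TPM in forebrain and 1.0, 0.08, 0.81 and 0.06 TPM in hindbrain. All forebrain libraries were far above all hindbrain libraries, those of E16.5 were above those of P0, and the difference was 3.98 ± 0.19 (SE, adjusted p = 1.25e-19). Its relative Emx2, which patterns the cortex along its axes, stood at 33.3, 30.9, 15.9 and 13.2 TPM in forebrain and 1.77, 0.21, 3.33 and 0.19 TPM in hindbrain. Its regions did not overlap either, and the difference was 3.47 ± 0.25 (SE, adjusted p = 1.29e-14). Nr2e1 (3.43), a receptor that keeps neural stem cells dividing, Six3 (2.79), a factor of the most anterior brain, and Lhx2 (2.57), a cortical selector gene, followed. Of the 6 members not called, Nr2f1 was close in both regions, at 147, 108, 137 and 90.3 TPM in forebrain and 92.5, 81.3, 83.6 and 116 TPM in hindbrain (difference 0.35).

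Pax6, an eye and cortex patterning factor that the cerebellum also uses, was the member with the most negative change between stages. Its levels were 60.8, 57.6, 28.9 and 26.1 TPM in forebrain and 61.1, 59.0, 88.4 and 112 TPM in hindbrain. At E16.5 the regions overlapped (difference -0.02), and at P0 both forebrain libraries were lower (difference -1.82). The change between stages was -1.80 ± 0.24 (SE, adjusted p = 3.64e-07), and -0.89 (adjusted p = 0.0302), under the threshold, with stages from the record titles. On the average of both stages it was -0.92, short of the threshold, and -1.003 without hindbrain P0 replicate 1.

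Genes of cortical projection neurons, the excitatory neurons that send axons out of the cortex, gave the most forebrain calls of any list. Of 26 tested, 15 were higher in forebrain and 0 lower, with a median of 1.41. Their summed level was 1567 to 2109.5 TPM in forebrain and 583 to 675 TPM in hindbrain. Tbr1, a factor of deep-layer neurons (ENSMUSG00000035033.11, chromosome 2, 61802930 to 61814114), stood at 104, 102, 43.8 and 70.3 TPM in forebrain and 4.70, 0.54, 2.61 and 0.92 TPM in hindbrain. Every forebrain library was above every hindbrain library, and the difference was 4.78 ± 0.31 (SE, adjusted p = 1.14e-15). Fezf2, which specifies corticospinal neurons, stood at 69.7, 60.7, 29.4 and 32.1 TPM in forebrain and 2.57, 0.07, 2.24 and 0.01 TPM in hindbrain and differed by 4.61. Neurod6, a factor of postmitotic pyramidal neurons, was the most abundant of these, at 507, 599.7, 370.5 and 367 TPM in forebrain and 52.1, 32.2, 37.5 and 22.7 TPM in hindbrain, a difference of 3.66 ± 0.23 (SE, adjusted p = 2.71e-16). Its hindbrain level was well above 0. Mef2c (3.16), an activity-dependent factor, Bcl11b (2.03) and Sox5 (1.91), both of deep-layer neurons, and Neurod2 (1.80) were called as well. The LIM-only genes Lmo3 and Lmo4 were higher in every forebrain library but by only 0.95 and 0.57, under the threshold. Mpped1, a metallophosphoesterase gene outside the list, was among the most different at high level, with 238, 233, 253 and 321 TPM in forebrain and 22.8, 14.54, 19.8 and 12.9 TPM in hindbrain (difference 3.85 ± 0.17 (SE, adjusted p = 2.52e-20)).

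**Figure D2:**
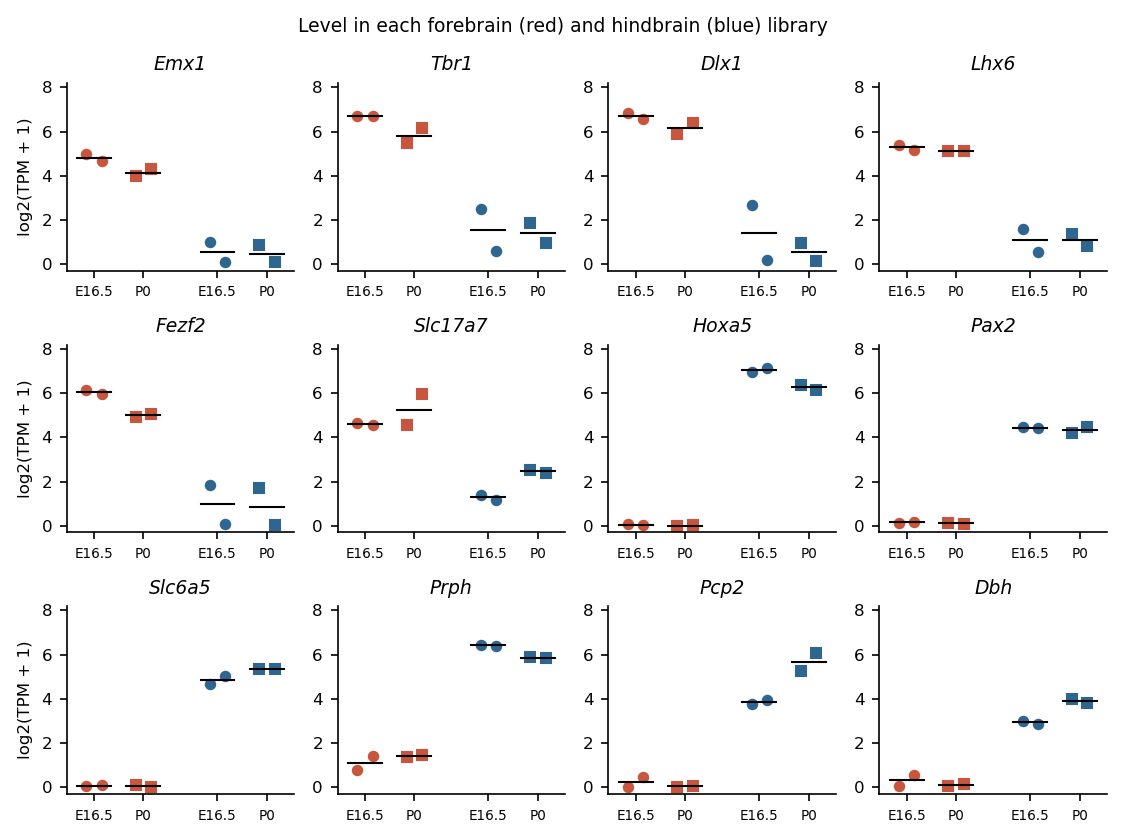
Level of 12 genes as log2(TPM + 1) in each of the 8 libraries; circles are E16.5, squares are P0, red is forebrain, blue is hindbrain and bars are means of 2 libraries. The first 6 genes are high in all 4 forebrain libraries and the last 6 in all 4 hindbrain libraries, and the hindbrain points of Fezf2 and Dlx1 are split between replicates.

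The program of forebrain interneurons was called higher for 10 of 21 tested members and lower for 0, with a median of 0.96. These inhibitory neurons arise in the ganglionic eminences under the Dlx homeobox genes and migrate into the cortex. Dlx1 (ENSMUSG00000041911.3, chromosome 2, 71528113 to 71533981) stood at 113, 95.1, 58.3 and 83.5 TPM in forebrain and 5.32, 0.16, 0.96 and 0.12 TPM in hindbrain. The regions did not overlap, and the difference was 5.43 ± 0.38 (SE, adjusted p = 6.28e-15). Its neighbours and relatives Dlx6, Dlx2 and Dlx5 were higher by 4.40, 4.10 and 3.90. Lhx6, which acts downstream of Nkx2-1 in interneurons of the medial eminence, stood at 41.5, 35.0, 33.4 and 33.99 TPM in forebrain and 2.0, 0.49, 1.62 and 0.77 TPM in hindbrain. Lhx6 barely moved between stages in forebrain, and it differed by 4.11 ± 0.18 (SE, adjusted p = 7.25e-21). Lhx8 and Nkx2-1 themselves were higher by 3.38 and 3.04. The genes that carry out inhibitory transmission did not follow the Dlx genes. Gad1, which makes GABA, stood at 119.9, 109.7, 134 and 142 TPM in forebrain and 140.4, 139, 158 and 127 TPM in hindbrain and the regions overlapped (difference -0.16). Sst, the somatostatin peptide gene, was lower in every forebrain library, at 188, 160.2, 200.3 and 194 TPM in forebrain and 242, 242, 291 and 361 TPM in hindbrain (difference -0.60, under the threshold).

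Genes of striatal projection neurons, the output cells of the basal ganglia, went both ways. Of 20 tested, 7 were higher in forebrain and 2 lower, with a median of 0.58. Ppp1r1b, the dopamine-regulated phosphatase inhibitor DARPP-32, stood at 41.1, 40.8, 39.0 and 75.1 TPM in forebrain and 5.01, 5.74, 8.28 and 9.47 TPM in hindbrain, higher in all forebrain libraries by 2.60 ± 0.20 (SE, adjusted p = 7.40e-14). The dopamine receptor gene Drd1 and the adenosine receptor gene Adora2a, which mark the direct and indirect pathways in the adult, were higher by 1.52 and 1.22. Isl1 (1.54), a factor of direct-pathway neurons, was also called. Penk, the enkephalin precursor, went the other way, at 15.1, 17.0, 27.2 and 32.3 TPM in forebrain and 111, 119, 107 and 133 TPM in hindbrain. It was several-fold higher in every hindbrain library, and the difference was -2.37 ± 0.17 (SE, adjusted p = 9.53e-15). Ebf1 was also lower (difference -1.98). Without forebrain E16.5 replicate 1 the number called lower was 4.

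Diencephalic and hypothalamic genes depended on the library. Of 13 tested members of 20, 4 were higher in forebrain and 5 lower, and the other 7 were below the expression filter. Those 7 all had a higher mean in forebrain, at low levels from 0.27 TPM for Rax to 1.25 TPM for Hcrt, and were not tested. Lhx5 and Gbx2, both called lower, are also on the hindbrain selector and border lists below. Avp, the vasopressin gene of hypothalamic neurons, stood at 3.49, 0.66, 38.6 and 11.3 TPM in forebrain and 0.13, 0, 0.15 and 0.18 TPM in hindbrain. Its forebrain level was higher at P0 than at E16.5 and differed several-fold between partners, and the average difference was 2.80 ± 0.27 (SE, adjusted p = 2.52e-11). Pmch, the melanin-concentrating hormone gene of the lateral hypothalamus, stood at 1.65, 0.20, 31.0 and 4.12 TPM in forebrain and 0.10, 0.07, 0.05 and 0 TPM in hindbrain, with most of it in 1 library. The difference was 2.18 ± 0.33 (SE, adjusted p = 4.52e-07). Tcf7l2, a factor of the thalamus, was at 42.0, 6.76, 135 and 63.4 TPM in forebrain and 13.8, 8.64, 38.2 and 8.93 TPM in hindbrain (difference 1.43), and its regions overlapped. Otp and Lhx5, factors of the hypothalamus and of hindbrain neurons alike, were lower in forebrain, with differences of -1.83 and -1.64. How much of the hypothalamus and thalamus each forebrain library held was not tested.

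Hox genes were nearly absent from forebrain. Of the 39 Hox genes, 21 passed the expression filter and all 21 were lower in forebrain, with a median of -4.17. Under quantile normalization 20 were called. The highest level of any Hox gene in any forebrain library was 0.24 TPM. Each of the 21 therefore passed the filter through hindbrain libraries alone, which fixed the direction of that count in advance. The 18 that did not pass included the posterior groups, and none exceeded 1.63 TPM in hindbrain. Hoxa5 (ENSMUSG00000038253.6, chromosome 6, 52201754 to 52204587) was the most different, at 0.05, 0.03, 0 and 0.01 TPM in forebrain and 124.7, 141, 82.5 and 69.4 TPM in hindbrain. The difference was -6.63 ± 0.17 (SE, adjusted p = 2.18e-27). Hoxb5 stood at 0.02, 0.05, 0 and 0 TPM in forebrain and 74.6, 77.5, 54.4 and 65.7 TPM in hindbrain (difference -6.07) and Hoxb3 at 0.12, 0.01, 0.01 and 0 TPM in forebrain and 63.1, 63.1, 33.2 and 39.2 TPM in hindbrain (difference -5.56). Both were many-fold above every forebrain library. Hoxa2, the only Hox gene expressed up to the second rhombomere, was lower, at 17.5 to 26.7 TPM in hindbrain (difference -4.47).

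The caudal Hox genes were the ones whose hindbrain level fell most by birth. Hoxb8 stood at 75.7, 54.4, 34.7 and 15.2 TPM in hindbrain, Hoxb7 at 32.3, 31.5, 15.1 and 5.94 TPM and Hoxc6 at 19.1, 8.98, 3.78 and 0.87 TPM. Hoxb9 went from 28.5 and 5.47 TPM at E16.5 to 0.49 and 0.10 TPM at P0. The anterior genes moved less, as with Hoxb5 above. The regional difference was smaller at P0 for 8 of the 21 (positive change between stages, against 2.02% of all genes): Hoxb9 (3.45 ± 0.51 (SE, adjusted p = 2.66e-06)), Hoxc8 (2.88), Hoxc6 (2.27), Hoxa7 (2.14), Hoxb7 (1.62), Hoxb8 (1.36), Hoxc5 (1.18) and Hoxb6 (1.07). None of the 21 changed the other way. The count was 0 when the 2 disputed hindbrain libraries took the stage of their record titles, 5 without hindbrain P0 replicate 2, 5 without all disputed columns of the series and 5 with a pseudocount of 0.1. Both hindbrain libraries of E16.5 were above both of P0 for each of these 8 genes. How far caudally each hindbrain was cut was not tested.

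**Figure D3:**
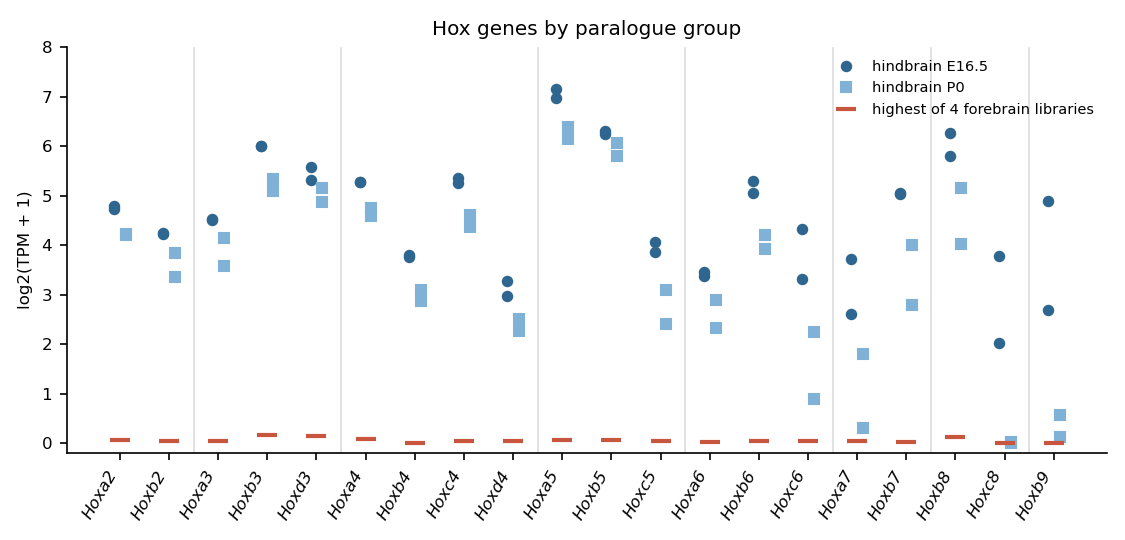
Level of 20 Hox genes as log2(TPM + 1), ordered by paralogue group from 2 (left) to 9 (right), in each hindbrain library of E16.5 (dark circles) and P0 (light squares), with the highest of the 4 forebrain libraries as a red bar. Hoxc8 and Hoxb9, at the right, fall to under 1 TPM at P0, while Hoxa5 stays at 69.4 TPM or more.

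Factors that select hindbrain neuron types were lower in forebrain for 23 of 26 tested members and higher for 0 (median -2.67). Mab21l2, a gene of the developing eye and dorsal brain, stood at 1.36, 1.30, 3.22 and 1.10 TPM in forebrain and 129, 116, 70.1 and 99.5 TPM in hindbrain. No library overlapped, and the difference was -5.28 ± 0.14 (SE, adjusted p = 2.83e-27). Barhl1, a factor of neurons born at the rhombic lip, stood at 0.45, 0.51, 2.85 and 0.40 TPM in forebrain and 27.1, 22.6, 36.5 and 47.7 TPM in hindbrain (difference -4.16). Lbx1 (-3.53), of dorsal inhibitory neurons, Tfap2b (-3.23), of cerebellar inhibitory neurons and neural crest, and Irx2 (-3.67), of the Iroquois family, were also lower. The border genes gave 9 lower of 10 tested (median -2.07). Pax2 (ENSMUSG00000004231.11, chromosome 19, 44756045 to 44837871) stood at 0.09, 0.13, 0.09 and 0.06 TPM in forebrain and 21.3, 20.2, 17.6 and 20.9 TPM in hindbrain, with little spread in either region, and differed by -4.26 ± 0.07 (SE, adjusted p = 2.56e-33). Its relative Pax8 differed by -3.64, En2 and En1, which pattern the cerebellum, by -3.14 and -2.66, and Cnpy1, of the border's FGF signalling, by -4.03. Fgf17 did not pass the threshold (0.44), and Fgf8 and Wnt1, the border's signals in the embryo, were under 1 TPM in all 8 libraries.

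Cerebellar genes were mostly lower in forebrain where called. Purkinje cells are the output neurons of the cerebellar cortex and Bergmann glia their support cells, and 12 of their 16 genes were lower in forebrain and 1, the intracellular calcium release channel gene Itpr1, higher (1.05). Pcp2, a Purkinje cell protein (ENSMUSG00000004630.14, chromosome 8, 3623371 to 3625545), stood at 0, 0.38, 0.02 and 0.05 TPM in forebrain and 12.6, 15, 37.3 and 65.6 TPM in hindbrain. Its hindbrain level was higher at P0, and the difference went from -3.63 at E16.5 to -5.61 at P0, a change of -1.98 ± 0.30 (SE, adjusted p = 5.22e-06). With stages from the record titles that change was 0.12 (adjusted p = 0.876), so it rests on the stage labels. Car8, an inhibitor of Itpr1 in the same cells, stood at 2.46, 2.67, 6.70 and 6.31 TPM in forebrain and 17.8, 19.7, 49.3 and 57.1 TPM in hindbrain (difference -2.66). Pvalb, a calcium buffer, differed by -2.14. Of 14 granule cell genes 4 were lower and 1 higher on the average of both stages, and 7 were lower and 0 higher at P0. The lists share members: Atoh1 and Barhl1 here, and Lhx1 and Lhx5 among the Purkinje genes, were also counted among the hindbrain selector factors. Atoh1, the proneural gene of granule cell precursors, stood at 0, 0.19, 0 and 0.01 TPM in forebrain and 8.28, 6.40, 4.13 and 7.27 TPM in hindbrain (difference -2.81 ± 0.12 (SE, adjusted p = 1.62e-21)), and Meis1 at 14.7, 15, 6.14 and 6.33 TPM in forebrain and 91.5, 87.3, 65.9 and 77.5 TPM in hindbrain (difference -2.93). Zic1, used by granule cells and by the septum and meninges of the forebrain, was abundant on both sides, at 106, 77.3, 115 and 138 TPM in forebrain and 169.6, 148, 201 and 256 TPM in hindbrain (difference -0.82).

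Neurons that make serotonin and noradrenaline lie largely in the brainstem. Lower in forebrain were 9 of 16 monoamine genes and 12 of 14 cholinergic and motor neuron genes, against 4.84% of all genes. Dbh, which makes noradrenaline, stood at 0.04, 0.49, 0.04 and 0.11 TPM in forebrain and 6.97, 6.37, 14.7 and 12.8 TPM in hindbrain. It was higher in the P0 than in the E16.5 hindbrain libraries, and its average difference was -3.20 ± 0.11 (SE, adjusted p = 2.37e-24). The change between stages was -1.16 by the headers. With stages from the record titles it was -0.25 (limma adjusted p = 0.539), not called. The noradrenaline transporter Slc6a2 differed by -2.88. Tph2, which makes serotonin in the raphe, stood at 0.16, 0.26, 0.63 and 0.50 TPM in forebrain and 8.54, 7.30, 8.03 and 11.54 TPM in hindbrain (difference -2.82 ± 0.15 (SE, adjusted p = 1.16e-18)), and the serotonin transporter Slc6a4 differed by -2.94. Th, shared by all catecholamine neurons, was close in the regions (-0.47). Prph, the peripherin filament of cranial motor and sensory neurons (ENSMUSG00000023484.9, chromosome 15, 99055174 to 99058978), stood at 0.72, 1.64, 1.59 and 1.75 TPM in forebrain and 86.1, 83.8, 59.2 and 55.8 TPM in hindbrain, a difference of -4.89 ± 0.18 (SE, adjusted p = 3.80e-23). Slc18a3, which loads acetylcholine into vesicles, was lower with a difference of -2.56, Chat, which makes acetylcholine, with -1.24, and the growth factor receptor Ret with -2.55. Isl1, the only member called higher, is also a striatal gene and was given above. Markers of sensory ganglia were lower for 5 of 7 tested (3 under quantile normalization, and 3 at P0) and higher for 2, with a summed level of 31.5 to 49.0 TPM in forebrain and 94.2 to 159.9 TPM in hindbrain. Prph, Calca, Isl1 and Pou4f1 are on that list and on others. Isl1 alone averaged 28.8 TPM in forebrain, and Prph alone 71.2 TPM in hindbrain. The part of attached ganglia in the differences of Prph and Calca was not tested.

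The vesicular glutamate transporters divided between the regions. Slc17a7, the glutamate transporter of cortical neurons (ENSMUSG00000070570.4, chromosome 7, 45163949 to 45176142), stood at 24.4, 22.8, 22.3 and 60.9 TPM in forebrain and 1.62, 1.26, 4.77 and 4.24 TPM in hindbrain. It was higher in all forebrain libraries by 3.06 ± 0.15 (SE, adjusted p = 1.94e-19). Slc17a6, the transporter of brainstem and thalamic neurons, stood at 35.3, 37.1, 56.6 and 33.9 TPM in forebrain and 96.3, 118, 99.6 and 96.3 TPM in hindbrain, the other way round, with a difference of -1.34 ± 0.11 (SE, adjusted p = 4.87e-13). Slc17a8, the third of this family, was lower (difference -2.04). Of the 10 glutamate transporter and GABA synthesis genes, 1 was higher and 3 lower, and 5 were lower without hindbrain E16.5 replicate 1. Glycine is the fast inhibitory transmitter of the brainstem and spinal cord. Slc6a5, the transporter that refills glycinergic terminals (ENSMUSG00000039728.10, chromosome 7, 49910146 to 49963856), stood at 0.03, 0.06, 0.07 and 0.01 TPM in forebrain and 24.1, 31.3, 39.6 and 39.7 TPM in hindbrain. Forebrain libraries held almost none of it, and the difference was -5.03 ± 0.11 (SE, adjusted p = 7.30e-30). The adult glycine receptor subunit Glra1 stood at 0.03, 0.07, 0.21 and 0.20 TPM in forebrain and 3.15, 4.85, 8.44 and 7.16 TPM in hindbrain (difference -2.55 ± 0.10 (SE, adjusted p = 8.77e-22)), while the fetal subunit Glra2 was abundant in both regions (-0.37). Of 8 glycinergic genes 3 were lower, and 5 without hindbrain E16.5 replicate 1. GABA-A receptor genes showed 1 call in 12, against 6.18% of all genes. It was Gabrd (1.26), at no more than 3.57 TPM. Glutamate receptor and postsynaptic genes gave 1 higher, Camk2a (1.08), and 6 lower of 30, against 1.34% and 4.84% of all genes. Among them Grin2d (-1.36), an NMDA receptor subunit, and Grm3 (-1.26), an inhibitory receptor, were lower. The number lower was 11 at E16.5 (background 7.61%) and 1 at P0 (3.54%).

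Genes of large, fast axons held some of the strongest hindbrain differences outside the transcription factors. Of 14 neurofilament and axonal protein genes, 7 were lower in forebrain and 0 higher (median -1.01), against 4.84% and 1.34% of all genes. By contrast, limma called 0 of 12 pan-neuronal genes (at an unadjusted p under 0.05, 3 were higher and 7 lower). Sncg, gamma-synuclein, stood at 3.89, 4.31, 7.46 and 4.31 TPM in forebrain and 219, 258, 167 and 172 TPM in hindbrain. Every hindbrain library was many-fold above every forebrain library, and the difference was -5.11 ± 0.16 (SE, adjusted p = 4.61e-25). Nefh, the heavy neurofilament chain of mature axons, stood at 1.13, 1.08, 4.13 and 2.71 TPM in forebrain and 26.1, 34.1, 45.8 and 43.9 TPM in hindbrain (difference -3.63 ± 0.09 (SE, adjusted p = 3.18e-28)). Nefm and Nefl, the medium and light chains, were lower, with differences of -3.05 and -2.75. Tubb3, a tubulin of all neurons, stood at 2111, 1801, 2204 and 2384 TPM in forebrain and 1760.0, 1784, 1530.4 and 1996 TPM in hindbrain (difference 0.26), and Stmn2, of growing axons, at 1139, 1242, 1721 and 1879.9 TPM in forebrain and 1841, 1901, 1968 and 1589 TPM in hindbrain (difference -0.31). Both overlapped between regions. Among vesicle release genes 5 of 24 were lower, against 4.84% of all genes. Syt2, the calcium sensor of fast synapses, stood at 1.29, 1.31, 2.64 and 1.72 TPM in forebrain and 15.6, 19.3, 33.4 and 37.1 TPM in hindbrain (difference -3.26 ± 0.09 (SE, adjusted p = 2.58e-26)), and Sv2c and Vamp1 were lower, with differences of -2.77 and -2.59. Syt1, its counterpart in the cortex, and Vamp2 differed by -0.43 and -0.49, under the threshold. Of 23 axonal and fast-firing channel genes 5 were lower, all by less than 1.5, among them Hcn2 (-1.33), a pacemaker channel. That number was 3 under median-of-ratios scaling, 3 under quantile normalization and 3 without hindbrain E16.5 replicate 3. Lamp5, a membrane protein of neurons, was the most different gene outside the Hox family with 0.97, 1.17, 2.70 and 3.74 TPM in forebrain and 155, 167, 119.6 and 125.4 TPM in hindbrain (difference -5.59 ± 0.18 (SE, adjusted p = 8.22e-25)).

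Retinoic acid is a signal that activates Hox genes in the early hindbrain. Of 16 tested genes of its pathway, 4 were lower in forebrain and 0 higher (median -0.25), against 4.84% and 1.34% of all genes. They were Cyp26b1 (-2.46), which degrades retinoic acid, Aldh1a1 (-1.45), which makes it, and the binding proteins Crabp1 (-1.53) and Crabp2 (-1.04). Crabp2 was under the threshold in 6 alternatives, from -0.85 without hindbrain P0 replicate 2 to -0.98 under median-of-ratios scaling. Cyp26b1 stood at 8.87, 7.68, 8.49 and 7.02 TPM in forebrain and 48.5, 38.8, 45.1 and 64.6 TPM in hindbrain. Immediate early genes, which respond to activity and handling, were higher in forebrain for 2 of 12, Fosl2 (1.71) and Egr3 (1.61), against 1.34% of all genes.

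Many glial genes were lower in forebrain, where 4.84% of all genes were. Astrocyte genes were lower for 15 of 24 and higher for 0 (median -1.08), and oligodendrocyte and myelin genes for 14 of 22 and 0 (median -1.15). The second count was 7 under quantile normalization. Aqp4, the water channel of astrocyte endfeet, stood at 0.97, 1.46, 11.8 and 13.9 TPM in forebrain and 13.2, 29.5, 73.8 and 80.5 TPM in hindbrain. By the header stages it increased in both regions and was at each stage higher in hindbrain (difference -2.87 ± 0.16 (SE, adjusted p = 6.65e-18)). S100b, a calcium-binding protein of glia, stood at 0.86, 1.37, 3.14 and 4.15 TPM in forebrain and 9.22, 13.2, 25.9 and 26.3 TPM in hindbrain (difference -2.54), and Aldoc, a glycolytic enzyme of astrocytes, at 124, 119.8, 163 and 172 TPM in forebrain and 277, 382, 606 and 563 TPM in hindbrain (difference -1.60). Gfap, the astrocyte filament, stood at 1.77, 1.40, 33.1 and 38.8 TPM in forebrain and 3.97, 11.3, 61.2 and 52.1 TPM in hindbrain. By the header stages it increased steeply in both regions and was at each stage lower in forebrain (difference -1.12 ± 0.16 (SE, adjusted p = 1.02e-07)). Slc1a3, a glutamate transporter of radial glia and astrocytes, was lower in every forebrain library (difference -0.99), just short of the threshold. Mbp, the myelin basic protein, stood at 10.2, 8.97, 17.5 and 19.8 TPM in forebrain and 27.8, 29.0, 145 and 119 TPM in hindbrain (difference -2.11 ± 0.08 (SE, adjusted p = 4.49e-23)). The hindbrain level increased more, and the change between stages was -1.27 ± 0.16 (SE, adjusted p = 9.59e-08). With stages from the record titles it was 0.73 (adjusted p = 0.28), not called and in the other direction. Bcas1, of early myelinating cells, stood at 1.62, 1.70, 6.07 and 5.21 TPM in forebrain and 14.2, 15.7, 39.0 and 34.6 TPM in hindbrain (difference -2.55), and Sox10, of the whole lineage, at 3.92, 3.48, 7.69 and 9.37 TPM in forebrain and 10.6, 11.9, 18.2 and 21.5 TPM in hindbrain (difference -1.25). Mobp, of compact myelin, was under 0.2 TPM in all libraries but those of hindbrain at P0, with 6.16 and 4.44 TPM. Pdgfra, of precursors, had a difference of -0.88, under the threshold. Peripheral glia markers summed to 49.2 to 63.4 TPM in forebrain and 66.7 to 108 TPM in hindbrain. The part of attached nerve in the myelin genes was not tested.

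**Figure D4:**
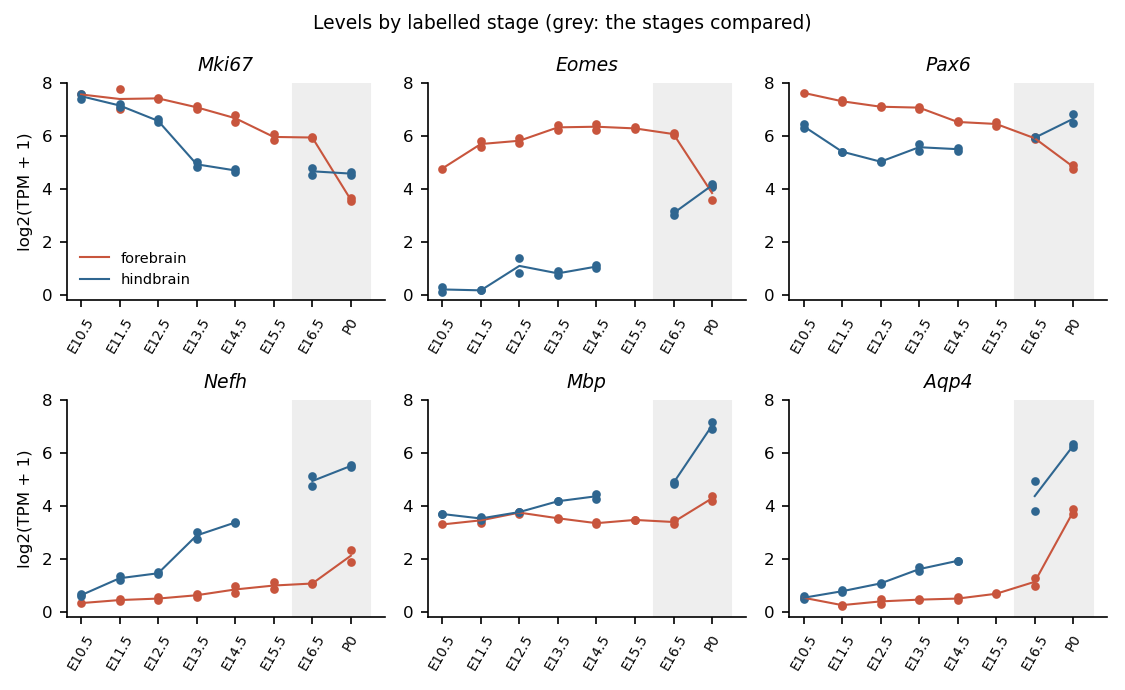
Levels of 6 genes as log2(TPM + 1) by labelled stage in forebrain (red) and hindbrain (blue), 1 point per library with lines through the means; grey marks E16.5 and P0, and the libraries labelled hindbrain at E15.5 are left out because they go against that label. Mki67 falls in forebrain between E16.5 and P0 and crosses the hindbrain level, Eomes crosses likewise, Pax6 goes from level with hindbrain to lower, and Nefh, Mbp and Aqp4 are higher in hindbrain at both stages.

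The stages differed most in the genes of dividing cells. On the average of both stages limma called 0 of 25 cell cycle genes (at an unadjusted p under 0.05, 12 were higher and 1 lower). No share of all genes is given for the unadjusted counts here. At E16.5, 14 of 25 were higher in forebrain and 0 lower, where 1411 of all genes were called (9.86%; 2.25% higher and 7.61% lower). At P0, limma called 0 of 25 (1 higher and 23 lower at an unadjusted p under 0.05), where 732 of all genes were (5.11%; 1.57% higher and 3.54% lower). Over all genes the regional difference changed between the stages for 604 (4.22%), upward for 289 (2.02%) and downward for 315 (2.2%). Of the 25 cell cycle genes 23 changed downward and 0 upward. The median change of the list was -1.66, and that of all genes 0.00. Mki67, a nuclear protein of dividing cells (ENSMUSG00000031004.7, chromosome 7, 135689784 to 135716361), stood at 59.0, 61.8, 10.5 and 12 TPM in forebrain and 26.6, 22.3, 21.8 and 23.9 TPM in hindbrain. Forebrain was above hindbrain at E16.5 and below it at P0, and the change was -2.27 ± 0.19 (SE, adjusted p = 3.46e-11). Top2a, a topoisomerase of mitosis, stood at 156, 169, 29.3 and 34.1 TPM in forebrain and 68.8, 53.1, 45.0 and 54.1 TPM in hindbrain (change -2.04). Pcna, the replication clamp, changed by -0.89 and Mcm7, of the replicative helicase, by -0.82, the only 2 short of the threshold. In hindbrain the summed level of the list was 676 to 846 TPM at E16.5 and 635 to 711 TPM at P0. In forebrain it was 1518 and 1570 TPM at E16.5 and 482 and 508 TPM at P0. The count at E16.5 was 5 without hindbrain E16.5 replicate 3 and 8 with stages from the record titles. The 23 downward changes remained 23 with stages from the record titles and were 22 or 23 with any 1 of the 8 libraries left out.

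**Figure D5:**
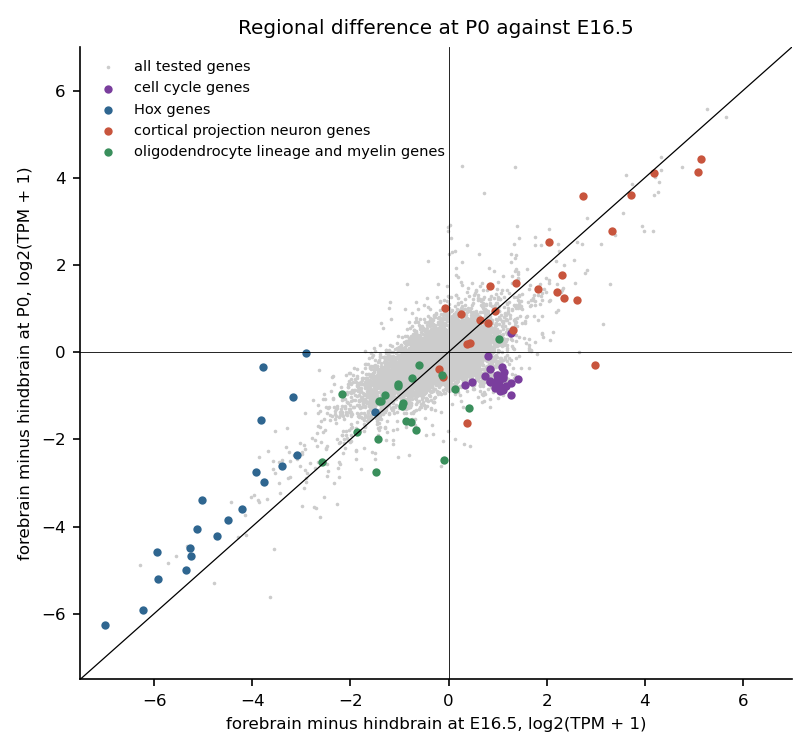
Difference between forebrain and hindbrain at P0 (vertical) against that at E16.5 (horizontal), both in log2(TPM + 1), for all 14313 tested genes (grey) and the members of 4 lists; the diagonal marks an equal difference. The cell cycle genes (purple) lie above 0 at E16.5 and, but for Mcm7, below 0 at P0, and the Hox genes lie at or above the diagonal.

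Of the cortical projection neuron genes 4 of 26 changed downward and 1 upward between the stages, against 2.2% and 2.02% of all genes. Eomes, the factor of intermediate progenitors, stood at 68.5, 63.9, 10.9 and 16.3 TPM in forebrain and 7.93, 7.01, 15.8 and 17.3 TPM in hindbrain. It dropped in forebrain by birth and increased in hindbrain, where it marks unipolar brush cells of the cerebellum. The difference went from 2.99 to -0.29, a change of -3.28 ± 0.41 (SE, adjusted p = 1.55e-07). With stages from the record titles that change was -2.09, also called. Neurod1 (-1.99), Sox5 (-1.43) and Neurod2 (-1.12) were the other 3 that changed downward. Genes of radial glia and progenitors gave 4 downward changes and 1 upward of 18. Neurog2, the proneural gene of cortical neurons, stood at 46.5, 44.3, 4.56 and 3.54 TPM in forebrain and 6.14, 2.80, 1.67 and 2.85 TPM in hindbrain (change -2.51 ± 0.32 (SE, adjusted p = 1.98e-07)). Insm1, of newborn neurons, changed by -2.003, and Nhlh1, on neither list, by -2.46. Nhlh1 was level in hindbrain, at 10.3, 10.1, 9.86 and 13.3 TPM, and fell in forebrain, at 9.79, 8.40, 1.44 and 0.69 TPM. The abundant radial glia members Vim, a filament, and Fabp7, a lipid-binding protein, did not pass the threshold (-0.89 and 0.21). In the opposite direction, 6 of 13 diencephalic genes increased their difference toward forebrain, led by Pmch (2.93 ± 0.65 (SE, adjusted p = 8.01e-04)) and Avp (2.88 ± 0.54 (SE, adjusted p = 9.47e-05)). Without forebrain P0 replicate 1, the change of Pmch was 1.604, and fitted on the 8 libraries alone it was not called (adjusted p = 0.074). Across the 2 stages 127 genes were called higher in forebrain at both, 395 lower at both, and 2 in opposite directions.

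The series concerns the fetal DNA methylome, and no gene of the DNA methylation machinery passed the threshold between regions: 0 of 15 were called in limma on the average of both stages. At an unadjusted p under 0.05, a cut for which no share of all genes is given, 8 were higher in forebrain and 2 lower. Dnmt1, the maintenance methyltransferase, stood at 81.5, 68.7, 55.1 and 58.5 TPM in forebrain and 63.1, 56.0, 52.4 and 53.8 TPM in hindbrain (difference 0.21 ± 0.08 (SE, adjusted p = 0.0203)), and Dnmt3a, a de novo methyltransferase, at 53.8, 42.9, 49.7 and 53.4 TPM in forebrain and 62.1, 70.6, 64.8 and 70.6 TPM in hindbrain (difference -0.42 ± 0.09 (SE, adjusted p = 1.26e-04)). Dnmt3a was lower in every forebrain library, by well under the threshold. Tet1, which oxidises 5-methylcytosine, overlapped at 15.3, 14.1, 11.8 and 12.1 TPM in forebrain and 12.3, 14.2, 16.1 and 13.4 TPM in hindbrain (difference -0.07). Uhrf1, which brings Dnmt1 to replicated DNA and is itself tied to cell division, stood at 52.3, 42.2, 11.8 and 13.47 TPM in forebrain and 29.0, 24.2, 23.2 and 23.7 TPM in hindbrain. Like the cell cycle genes it was higher in forebrain at E16.5 and lower at P0, a change of -1.65 ± 0.20 (SE, adjusted p = 9.80e-08). Hells, a remodeller of replicating chromatin, was the other member with a called change (-1.45).

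The promoters of genes that separate the regions are given here for a forebrain factor, a hindbrain factor, the transporters of cortical and glycinergic neurons and a Purkinje cell gene. They differ widely in CG dinucleotides, the sites that DNA methylation acts on, which are the letters in capitals. Each sequence runs from 250 bases before to 50 after the RefSeq start on GRCm38.p6 (the mm10 assembly), 5′ to 3′ on the gene's strand.

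Dlx2 (chr2:71546705-71547004, minus strand): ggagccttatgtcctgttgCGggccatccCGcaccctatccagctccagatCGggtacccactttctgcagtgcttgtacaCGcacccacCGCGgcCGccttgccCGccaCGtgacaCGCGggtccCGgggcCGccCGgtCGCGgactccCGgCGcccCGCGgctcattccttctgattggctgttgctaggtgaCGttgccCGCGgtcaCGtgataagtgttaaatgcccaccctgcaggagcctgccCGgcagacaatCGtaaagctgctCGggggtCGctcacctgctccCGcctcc
Hoxa5 (chr6:52204538-52204837, minus strand): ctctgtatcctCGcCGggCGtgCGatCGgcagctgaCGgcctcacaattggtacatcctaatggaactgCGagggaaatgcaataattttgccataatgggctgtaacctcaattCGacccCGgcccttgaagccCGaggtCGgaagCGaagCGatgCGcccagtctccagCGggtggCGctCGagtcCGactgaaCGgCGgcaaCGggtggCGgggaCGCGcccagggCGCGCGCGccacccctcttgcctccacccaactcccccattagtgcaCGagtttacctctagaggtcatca
Slc17a7 (chr7:45163671-45163970, plus strand): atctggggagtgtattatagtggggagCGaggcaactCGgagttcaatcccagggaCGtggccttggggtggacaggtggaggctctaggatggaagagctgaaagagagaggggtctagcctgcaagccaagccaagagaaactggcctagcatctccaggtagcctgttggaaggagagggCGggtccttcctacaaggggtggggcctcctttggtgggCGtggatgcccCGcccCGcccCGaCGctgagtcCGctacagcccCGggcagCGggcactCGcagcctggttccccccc
Slc6a5 (chr7:49910049-49910348, plus strand): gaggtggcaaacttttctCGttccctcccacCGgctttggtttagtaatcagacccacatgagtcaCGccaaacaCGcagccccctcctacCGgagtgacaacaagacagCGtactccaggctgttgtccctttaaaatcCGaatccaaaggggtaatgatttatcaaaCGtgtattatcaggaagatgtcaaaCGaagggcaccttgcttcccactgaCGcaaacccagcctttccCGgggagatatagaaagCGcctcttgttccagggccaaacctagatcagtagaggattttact
Pcp2 (chr8:3625498-3625797, minus strand): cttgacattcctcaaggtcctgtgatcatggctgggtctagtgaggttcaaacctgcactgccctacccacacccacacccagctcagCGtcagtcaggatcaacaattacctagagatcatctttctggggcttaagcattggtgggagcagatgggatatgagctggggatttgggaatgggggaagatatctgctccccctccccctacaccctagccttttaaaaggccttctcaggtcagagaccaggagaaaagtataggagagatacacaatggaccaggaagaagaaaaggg

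Dlx2 and Hoxa5, transcription factors of opposite regions, each had 29 CG dinucleotides. Slc17a7 had 13, Slc6a5 12 and Pcp2 1. A RefSeq promoter within 500 bases of the annotated gene start was matched for 9827 of the 14313 tested genes, 107 of the 192 higher in forebrain and 445 of the 693 lower. The median number of CG dinucleotides was 21 over all matched genes, 17 in those higher in forebrain and 15 in those lower. The letters TATAAA, searched on both strands, were found in 698 of all 9827 matched promoters (7.1%), in 13 of the 107 higher in forebrain (12.1%) and in 60 of the 445 lower. The letters CCAAT were found in 39.2%, 47.7% and 35.1%, and GGGCGG, which itself holds a CG, in 65.5%, 53.3% and 54.8%. These shares describe letters in a fixed window and were not tested.

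Most hindbrain differences were already present at E13.5 and E14.5. Of the 693 genes lower in forebrain at E16.5 and P0, 481 (69.4%) were also called lower on the average of E13.5 and E14.5, which is 44.4% of the 1084 called lower there (7.57% of genes). Of the 192 higher, 81 (42.2%) were called higher then, 17.9% of 452 (3.16% of genes). No gene was called in opposite directions. The 2 comparisons share no library. The regional difference itself changed between these ages for 615 genes (4.3%), toward forebrain for 243 (1.7%) and toward hindbrain for 372 (2.6%). Toward forebrain, Nrgn, a calmodulin-binding protein of cortical dendrites, averaged 4.36 and 6.01 TPM in forebrain and 15.51 and 4.58 TPM in hindbrain at E13.5 and E14.5 and stood at 30.6, 26.5, 95.5 and 177 TPM in forebrain and 7.84, 7.59, 27.3 and 15 TPM in hindbrain later, a change of 2.85 ± 0.29 (SE, adjusted p = 5.23e-10). Crym, a thyroid hormone-binding protein, changed by 2.73 and Npy, a peptide of interneurons, by 2.81. Of the cortical projection neuron genes, 8 of 26 changed toward forebrain and 1, Eomes, toward hindbrain (-4.05 ± 0.29 (SE, adjusted p = 7.00e-14)). Of the telencephalic patterning factors, 0 of 17 changed toward forebrain and 8 toward hindbrain, among them Emx1 (-1.30), Emx2 (-1.03), Nr2e1 (-1.86) and Pax6 (-2.18). Toward hindbrain, Pcp2 averaged 0 and 0 TPM in forebrain and 0.26 and 0.58 TPM in hindbrain at E13.5 and E14.5, and its change of -4.13 ± 0.21 (SE, adjusted p = 4.64e-17) was the most negative of the named genes. Car8, Tuba4a, a tubulin, and Aqp4 changed by -1.94, -2.23 and -1.58. Among cell cycle genes 24 of 25 changed toward hindbrain. The Hox genes changed toward 0 for 11 of 21 and away from it for 0.

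For markers of other cells that the tissue pieces could hold, the result varied by list, from 0 calls to most members. The share called over all genes was 6.18%. Every tested sensory ganglion marker passed the threshold, as given above, and 3 of 7 peripheral glia markers did, all lower in forebrain. Endothelial, pericyte, microglial and erythroid markers gave 0 calls in limma of 12, 8, 13 and 7 tested. At an unadjusted p under 0.05, 6, 4, 9 and 0 of these differed, all lower in forebrain. The 6.18% does not apply to that cut, for which no share of all genes is given. Choroid plexus markers were lower in forebrain for 2 of 10 (all 10 at an unadjusted p under 0.05) and summed to 838 to 2495 TPM in forebrain and 1766 to 2927 TPM in hindbrain, mostly from Ttr. Skeletal muscle and cartilage markers were lower for 6 of 8. Their sum was 18.4 to 31.9 TPM in forebrain and 25.1 to 329 TPM in hindbrain, and 2 of 8 were lower without hindbrain E16.5 replicate 1 and 2 without hindbrain P0 replicate 1. Actc1, a muscle actin, stood at 0.39, 2.17, 2.99 and 0.06 TPM in forebrain and 68.0, 1.45, 3.06 and 0.84 TPM in hindbrain (difference -1.52, and -0.32 without hindbrain E16.5 replicate 1). Tnnt3, a fast muscle troponin, was at 0.97, 2.13, 2.25 and 1.75 TPM in forebrain and 42.9, 3.78, 12.6 and 4.52 TPM in hindbrain (difference -2.04, and -1.24 without it). Hepatocyte markers were higher for 3 of 9, namely Alb, Ahsg and Serpina1a, and for 0 without forebrain E16.5 replicate 1 or without hindbrain E16.5 replicate 1. Alb, serum albumin, stood at 18.1, 0.18, 14.2 and 28.4 TPM in forebrain and 0.03, 13.8, 0.11 and 0.08 TPM in hindbrain and varied within each group, and its difference of 2.28 was 1.27 without forebrain E16.5 replicate 1 and 1.31 without hindbrain E16.5 replicate 1, not called in either (adjusted p = 0.116 and 0.107). Meningeal markers were lower for 1 of 12, Ptgds (-1.13, and -0.80 without hindbrain P0 replicate 2), for 5 without hindbrain P0 replicate 1, for 4 without hindbrain E16.5 replicate 3 and for 0 without forebrain E16.5 replicate 1. The part of these cells in the differences given above was not tested.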

How the data were processed

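Per the labels' protocols, libraries were made from 4 µg of total RNA by a kit for stranded mRNA sequencing. The values are TPM as the authors deposited them, 1 column per library. Per the submitters' processing notes, STAR 2.4.0k, RSEM 1.2.23 and mm10 were used. Which tool did which step, and with which annotation, is not given in the sources used here. Read depth is unknown.

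Of 43346 gene identifiers, 42462 matched GENCODE M21 (GRCm38), 21474 of them protein-coding. Of these, 14313 had at least 1 TPM in at least 2 of the 8 libraries. Values were tested as log2(TPM + 1) with limma 3.58.1 in R 4.3.3, with 1 mean per tissue and stage over all 61 libraries, 30 residual degrees of freedom and a mean-variance trend. Every printed adjusted p is limma's, two-sided and adjusted over the 14313 genes. The script was tested on simulated data. The members, gene lists and tests were chosen with earlier results of these data known. Named genes were, per list, up to 4 called members of largest difference and up to 2 others of highest TPM, the 12 highest and 12 lowest calls without overlap whose mean reached 5 TPM, the 6 of largest change each way between ages, all called Hox genes and 12 fixed genes, leaving out predicted genes. Some genes so chosen are not reported here. Other list members named were chosen after their values were seen. In pairs of libraries of a group, 99.4% to 99.7% of tested genes had different values. Alternatives were a pseudocount of 0.1, no filter, other scalings, fewer libraries, a replicate block, stages from record titles, and leaving out each library.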

Additional observations from a re-analysis of the deposited data

Results flagged for a closer look

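The regional difference itself changed between E16.5 and P0 for 604 genes, and between E13.5-E14.5 and E16.5-P0 for 615. These were selected by a test of the change in limma. Changes of named genes between E16.5 and P0 toward hindbrain were -3.28 for Eomes, -2.51 for Neurog2, -2.46 for Nhlh1, -2.43 for Hbb-y, -2.4 for Mobp and -2.27 for Mki67. Toward forebrain they were 3.99 for Alb, 3.45 for Hoxb9, 2.93 for Pmch, 2.88 for Avp, 2.88 for Ahsg and 2.88 for Hoxc8. Hbb-y, an embryonic globin, stood at 10.4, 11.3, 2.27 and 0.74 TPM in forebrain and 13.8, 5.12, 4.05 and 20.1 TPM in hindbrain, and its change was -1.40 without hindbrain P0 replicate 2. The changes of Alb and Ahsg were not called without forebrain E16.5 replicate 2 (1.98 and 1.96, adjusted p = 0.316 and 0.0542) or without hindbrain E16.5 replicate 3 (2.07 and 1.97, adjusted p = 0.316 and 0.0582). That of Alb was also not called without forebrain P0 replicate 2, hindbrain P0 replicate 1 or hindbrain P0 replicate 2 (3.52, 4.01 and 3.97, adjusted p = 0.0861, 0.0546 and 0.0582). With stages from the record titles the changes of Hoxb9, Hoxc8, Mobp, Hbb-y, Alb and Ahsg were 0.89, 0.87, -0.16, -0.64, 0.21 and 1.16, none called.

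Between E13.5-E14.5 and E16.5-P0, changes toward hindbrain were -4.13 for Pcp2, -4.05 for Eomes, -2.74 for the histone gene Hist1h2ao, -2.35 for Samd3, -2.23 for Tuba4a and -2.19 for the nuclease gene Exo1. Toward forebrain they were 3.28 for Alb, 2.85 for Nrgn, 2.81 for Npy, 2.73 for Crym and 2.54 for the cartilage gene Cnmd. Hist1h2ao stood at 0, 0, 0 and 0 TPM in forebrain and 0, 1.86, 1.36 and 0 TPM in hindbrain, so its change rests on the earlier stages, where it averaged 18.2 and 0 TPM in forebrain and 0 and 0 TPM in hindbrain. The histone genes of this cluster have near-identical copies, and its values are uncertain. The change of Alb was 2.27 without forebrain E16.5 replicate 1 and not called (adjusted p = 0.052).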

How the results depend on the processing

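The counts of genes called on the average of both stages stayed within 1.5 times of 192 higher and 693 lower under the alternatives run, except that a pseudocount of 0.1 gave 1081 lower. That setting also gave 946 genes whose regional difference changed between E16.5 and P0, and 980 between E13.5-E14.5 and E16.5-P0. Stages from the record titles gave 1014 changes between E16.5 and P0. The cause was not tested. Leaving out each of the 8 libraries gave 182 to 211 genes higher, 677 to 731 lower, 1272 to 1603 called at E16.5, 696 to 893 at P0, 528 to 784 changed between E16.5 and P0 and 599 to 654 changed from the earlier ages. A group left with 1 library was assumed to vary like the others. With a replicate block, which needs the 4 disputed columns left out, 179 genes were higher and 646 lower. Deviations of same-numbered forebrain and hindbrain libraries had a correlation of 0.148 at E11.5 and of -0.019 to 0.061 over E12.5 to E14.5. It was 0.027 at E15.5, where the hindbrain libraries go against their label, and 0.063 at P0, with 1 disputed library. No label gives the numbers a meaning, and they were not taken as pairs. At E16.5 the regions share 1 number only, and the check was not possible. Of 238 results on named genes, 0 of those called changed sign in any setting. A change of sign in a result that was not called was not counted. The changes of Pcp2 and Mbp between E16.5 and P0 are not among the 238. They became positive with stages from the record titles (0.12 and 0.73, neither called). Quantile normalization ended 9 calls and made 5. Depth is unknown, and with 2 libraries per group the precision comes from the spread shared over all 61.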

Other observations

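Genes not counted in the lists also separated the regions; those named here were chosen after their values were seen. Prrxl1 is another symbol of Drgx, a hindbrain selector factor on the list that was not matched by symbol and is not among the 26 tested. It stood at 0.03, 0.05, 0.09 and 0.10 TPM in forebrain and 21.3, 21.4, 13.04 and 8.92 TPM in hindbrain (difference -3.93 ± 0.11 (SE, adjusted p = 3.58e-27)), and Ebf3 at 6.12, 7.08, 13.4 and 6.31 TPM in forebrain and 128, 107, 97.5 and 98.5 TPM in hindbrain (difference -3.61). No forebrain library reached a hindbrain library for either gene. Skor1 and Shox2 were lower in forebrain, with differences of -3.33 and -3.04. Slc30a3, the vesicular zinc transporter known from adult cortical neurons, was low in forebrain at these stages, with 1.49, 1.43, 3.34 and 2.46 TPM in forebrain and 26.1, 29.1, 24.0 and 27.2 TPM in hindbrain (difference -3.16 ± 0.09 (SE, adjusted p = 2.58e-26)). Kcnk9, an acid-sensitive potassium channel gene, was higher in the P0 than in the E16.5 libraries of each region, at 2.44, 2.52, 8.11 and 8.35 TPM in forebrain and 20.8, 30.7, 40.7 and 43.9 TPM in hindbrain (difference -2.57).

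In forebrain, Sla, an adaptor of receptor signalling, stood at 98.0, 126, 105 and 129 TPM in forebrain and 8.69, 6.34, 7.91 and 6.25 TPM in hindbrain, steady across stages (difference 3.80 ± 0.17 (SE, adjusted p = 3.02e-20)). Zbtb18, a repressor needed for cortical neuron maturation, was abundant at 451, 495, 424 and 498 TPM in forebrain and 73.5, 59.8, 127 and 120.1 TPM in hindbrain (difference 2.35). Its hindbrain level was higher at P0. Gipr, the receptor of an incretin hormone, stood at 15.3, 15.8, 16.1 and 19.4 TPM in forebrain and 1.62, 1.11, 1.47 and 1.0 TPM in hindbrain (difference 2.94 ± 0.10 (SE, adjusted p = 2.77e-24)), and its regional difference grew from E13.5-E14.5 by 1.90. Chrm1, a muscarinic acetylcholine receptor gene, was higher in forebrain by 2.17, although the genes that make and load acetylcholine were lower there. Tiam2, a regulator of cell migration, was higher by 3.37, and its forebrain levels of 76.8, 78.4, 26.7 and 35.6 TPM were lower at P0 than at E16.5.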
